A study of Mus musculus with 30 samples.

Results

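A set of 6 genes whose RNA or protein is used to mark injury of the kidney tubule were followed across kidney and skeletal muscle of mutant and wild-type mice: Lcn2, Havcr1, Spp1, Clu, Vcam1 and Cd44. They were taken by name, with every array probe set annotated to that 1 gene symbol. The annotation used here listed 13 such probe sets for 5 of the 6 genes, among 31563 probe sets and 17782 genes with 1 symbol, and Spp1 is not analysed here. Lcn2 had 1 probe set, Havcr1 had 2, Clu 4, Vcam1 3 and Cd44 3, and no filter on low values was applied, so all 13 were tested.

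The study measured 30 arrays from 15 mice aged 6 weeks, 1 kidney and 1 muscle array from each animal. The mutants, labelled Kif3aΔTub and Kif3aKSPCre, lack the kinesin-2 subunit Kif3a, which is needed to build primary cilia, in cells where the Ksp (cadherin 16) promoter drives Cre, mainly tubule epithelium of the distal nephron and collecting duct. Mice received PBS or a ligand trap, sActRIIB-Fc, in which the soluble ectodomain of activin receptor IIB is joined to an antibody Fc part so that it binds activins and related ligands. This agent, here called the trap, was given into the peritoneum at 10 mg/kg every week, 2 times up to week 6. In each tissue there were 3 arrays of wild-type mice given PBS and 4 arrays each of the 3 other groups, untreated mutants, treated wild type and treated mutants.

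Tubule cells that are damaged or lose their differentiated state switch on a small set of genes. Lcn2 encodes lipocalin 2, also known as NGAL, a secreted protein that binds iron-carrying siderophores and is raised in urine early in kidney injury, where much of it comes from the distal nephron. Havcr1 encodes KIM-1, a membrane receptor for phosphatidylserine that appears on injured proximal tubule cells and lets them engulf dead neighbours. Spp1 (osteopontin) and Clu (clusterin) encode secreted proteins, and Vcam1 and Cd44 encode cell-surface adhesion receptors, for integrins and for hyaluronan.

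Because Lcn2 and Havcr1 gave the clearest contrast, the 250 bases before their annotated starts are shown from RefSeq (GRCm38.p6), 5′ to 3′ on the gene's own strand. Lcn2 lies on chromosome 2 from 32384637 to 32387739, and its window is chr2:32387740-32387989, minus strand. Havcr1 lies on chromosome 11 from 46739822 to 46779578, plus strand, with 3 annotated starts, of which windows chr11:46739973-46740222 (start 1) and chr11:46750261-46750510 (start 2) are printed. Capitals mark the only matches, on either strand, to the letters searched.
Lcn2: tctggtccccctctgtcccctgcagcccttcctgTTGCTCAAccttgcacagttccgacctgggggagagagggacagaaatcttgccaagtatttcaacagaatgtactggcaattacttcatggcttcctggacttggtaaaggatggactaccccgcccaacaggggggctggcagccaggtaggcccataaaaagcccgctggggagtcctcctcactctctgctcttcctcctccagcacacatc
Havcr1 start 1: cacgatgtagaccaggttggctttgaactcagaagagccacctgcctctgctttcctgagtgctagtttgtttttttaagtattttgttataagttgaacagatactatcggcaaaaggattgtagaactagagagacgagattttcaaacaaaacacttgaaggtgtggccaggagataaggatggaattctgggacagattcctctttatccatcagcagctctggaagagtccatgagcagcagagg
Havcr1 start 2: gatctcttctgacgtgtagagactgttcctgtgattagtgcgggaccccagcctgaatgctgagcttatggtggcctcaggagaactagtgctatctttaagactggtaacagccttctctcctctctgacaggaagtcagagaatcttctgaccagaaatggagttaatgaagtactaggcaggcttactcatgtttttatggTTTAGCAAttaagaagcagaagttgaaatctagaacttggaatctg

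The letters searched, on both strands, were TTNCNNAA for C/EBP factors, GGANTTCC for NF-kB and TTCNNNGAA for STAT proteins. Matches to TGANTCA were read as the AP-1 pattern. The TATA box was read as TATAAA. The Lcn2 window held 1 C/EBP match, TTGCTCAA, from -216 to -209 relative to the start. Start 2 of Havcr1 held 1 as well, TTTAGCAA, from -46 to -39, and starts 1 and 3 held no match to any motif. C/EBP letters occurred in 36.8% of the 32851 promoter windows of this length, STAT letters in 7.0%, AP-1 letters in 6.7%, TATA letters in 12.4% and NF-kB letters in 4.0%. A match describes letters only. The single Cd44 window on chromosome 2 (102901666 to 102901915, minus strand) held no match. Clu lies on chromosome 14 from 65968483 to 65981548, Vcam1 on chromosome 3 from 116110020 to 116129688, and Cd44 on chromosome 2 from 102811141 to 102901669.

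Values below are the deposited log2 intensities, so a difference of 1 is a doubling of signal. Group values are means ± SD and changes are log2 differences ± standard error from limma, with p adjusted by Benjamini-Hochberg over all 31563 probe sets. A probe set was called at an adjusted p under 0.05. A gene's leading probe set is its brightest by mean in kidney, used for both tissues, and the others come from the same fit. The median level of 16 skeletal muscle genes in kidney was 4.53 and that of 23 proximal tubule genes in muscle was 5.15, which is taken as the signal of genes hardly expressed there. Signals near that level bound a fold change from below. Precision is limited by how few arrays there are.

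Arrays of 1 group correlated at 0.984 or more in kidney and 0.976 or more in muscle. Kif3a, the deleted gene, was at 7.33 ± 0.12 in untreated mutant kidneys and 7.83 ± 0.07 in wild type (-0.50 ± 0.15, n = 4 and 3, limma adjusted p = 0.0116), and at 7.63 ± 0.30 and 7.65 ± 0.22 under the trap (-0.02 ± 0.14, adjusted p = 0.909). Whether this probe set lies in the deleted part was not known here, so the genotypes of treated kidneys rest on the labels. In a whole tissue, a change in the number of cells of a type and a change in RNA per cell cannot be told apart.

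Lcn2 was the marker that separated the genotypes most widely. In kidney its probe set gave 5.56, 5.13 and 5.11 in the 3 untreated wild-type mice and 13.75, 12.87, 13.38 and 13.54 in the 4 untreated mutants. Wild-type mice given the trap were at 5.06, 5.07, 4.69 and 4.65, and mutants given the trap at 12.31, 13.01, 13.18 and 13.20. All 8 mutant kidneys lay above all 7 wild-type kidneys, which lay near the background level. Lcn2 rose in mutants by 8.12 ± 0.23 under PBS (278-fold, adjusted p = 8.94e-12), the highest rise of all 31563 probe sets, and by 8.06 ± 0.21 under the trap (267-fold, adjusted p = 3.50e-12). Between treated mutants and untreated wild type the difference was 7.66 ± 0.23 (202-fold).

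For the trap, Lcn2 gave small values in kidney that did not pass. Treated mutants were at 12.93 ± 0.42 and untreated mutants at 13.39 ± 0.38, with overlapping arrays, a change of -0.46 ± 0.21 that did not pass (adjusted p = 0.345, 95% interval -0.91 to -0.01). In wild type the change was -0.40 ± 0.23 (adjusted p = 0.451), although the 4 treated arrays lay below the 3 untreated ones. The interaction of genotype and trap was -0.06 ± 0.31 (adjusted p = 0.959, 95% interval -0.72 to 0.60).

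Havcr1 behaved differently: its arrays overlapped between the untreated groups and lay higher after the trap. The leading probe set gave 8.05, 8.81 and 8.36 in untreated wild-type kidneys and 9.07, 8.39, 8.12 and 8.16 in untreated mutants. Under the trap, wild-type kidneys gave 10.44, 9.58, 10.64 and 9.89, and mutants 10.71, 11.48, 12.39 and 12.04. The untreated groups overlapped, every treated kidney lay above every untreated one, and every treated mutant lay above every treated wild-type kidney.

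In mutants the trap raised Havcr1 by 3.22 ± 0.33 (9.3-fold, adjusted p = 1.81e-04), the 4th highest rise of the 31563 probe sets. In wild type it rose by 1.73 ± 0.35 (3.32-fold, adjusted p = 0.0285), a call lost in 8 of 26 alternative settings (changes from 1.34 to 1.96 over all 26, highest adjusted p = 0.158), among them the mean of both probe sets, the 18S covariate and leaving out any of the 3 untreated wild-type arrays or treated wild-type arrays 3 or 4. The genotypes differed under the trap by 1.52 ± 0.33 (2.87-fold, adjusted p = 0.00156) and not detectably under PBS (0.03 ± 0.35, adjusted p = 0.947, 95% interval -0.72 to 0.79). The larger rise in mutants than in wild type did not pass as an interaction (1.49 ± 0.48, adjusted p = 0.161). Without treated mutant array 1, the lowest of its group, the interaction was 1.80 and passed (adjusted p = 0.0487). Treated mutants stood 3.25 ± 0.35 above untreated wild type.

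The other Havcr1 probe set, 1450364_a_at, gave a like picture at a lower signal, from 6.02 to 7.38 over the 7 untreated kidneys and from 7.43 to 10.12 over the 8 treated ones. It rose with the trap in mutants by 2.89 ± 0.35 (adjusted p = 5.85e-04) and was higher in mutants than in wild type under the trap by 1.40 ± 0.35 (adjusted p = 0.00417), although the arrays of those groups overlapped (8.49 to 10.12 and 7.43 to 8.69). Its change in wild type was 0.96 ± 0.37 and did not pass (adjusted p = 0.239), and its genotype difference under PBS was -0.54 ± 0.37 (adjusted p = 0.246).

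**Figure D1:**
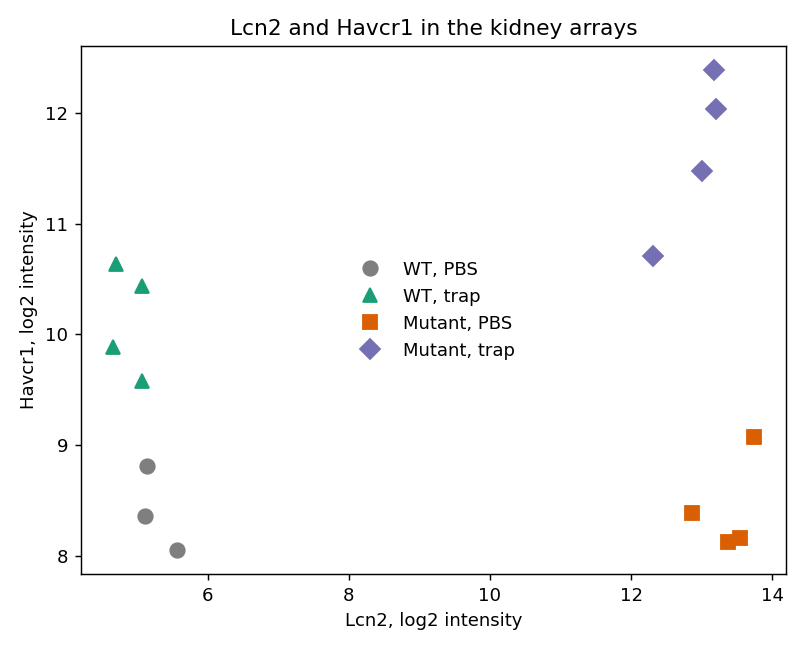
Log2 intensity of Lcn2 (x axis) against Havcr1 (y axis), each by its leading probe set, in the 15 kidney arrays, with 1 point per array and a marker for each group. Lcn2 sets the 8 mutant kidneys (12.31 to 13.75) apart from the 7 wild-type ones (4.65 to 5.56), and Havcr1 sets the 8 treated kidneys (9.58 to 12.39) above the 7 untreated ones (8.05 to 9.07).

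The contrast between the markers is described by the difference between 2 leading probe sets within each kidney array, with no test, since Havcr1 was set against the others after their values were seen. In mutants the trap moved Havcr1 by 3.68 more than Lcn2, by 3.07 more than Clu, by 2.78 more than Vcam1 and by 2.84 more than Cd44 (4 against 4 arrays). Loss of Kif3a under PBS moved it by -8.09 relative to Lcn2, and by -2.26, -3.85 and -3.59 relative to Clu, Vcam1 and Cd44 (4 against 3 arrays). Leaving out any 1 array moved the Havcr1 to Lcn2 difference only between 3.52 and 3.83 for the trap and between -8.41 and -7.82 for the genotype.

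Signal of the 18S ribosomal RNA control probe sets also moved with the trap in kidney. It lay between 12.97 and 13.06 in untreated wild type and between 12.86 and 13.43 in untreated mutants, and lay lower with the trap, between 12.43 and 12.80 in wild type and between 12.00 and 12.70 in mutants. With this signal as a covariate the Havcr1 change was 3.60 in mutants (adjusted p = 0.0412) and 1.91 in wild type (adjusted p = 0.107). Proximal tubule genes, from the segment where Havcr1 protein is known to appear, averaged 12.2 ± 0.02 and 12.2 ± 0.08 in untreated and treated wild type, 9.85 ± 0.63 in untreated mutants and 10.69 ± 0.25 in treated mutants. Of 23 measured, 23 fell with the mutation under PBS, where 50.9% of all genes were called. With the trap in mutants, where 2.0% of all genes were called, 3 rose, Miox by 1.86, Gatm by 1.51 and Kap by 1.00 (median of the 23, 0.82). The part of this in the Havcr1 change was not tested.

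Clu was already high in wild-type kidney and rose in mutants. Its leading probe set gave 11.01, 11.48 and 11.43 in untreated wild type, 13.70, 13.70, 13.49 and 13.51 in untreated mutants, 11.77, 12.56, 11.92 and 11.98 in treated wild type and 13.61, 13.78, 13.78 and 13.82 in treated mutants. The genotypes did not overlap under either treatment. Clu rose in mutants by 2.29 ± 0.16 under PBS (4.89-fold, adjusted p = 2.49e-08) and by 1.69 ± 0.15 under the trap (adjusted p = 4.11e-07).

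With the trap Clu rose in wild type by 0.75 ± 0.16 (1.68-fold, adjusted p = 0.0353), and all 4 of its probe sets were called there (0.75 to 0.80). This call was lost in 7 of 26 settings, for example without untreated wild-type array 1 (0.60, adjusted p = 0.194) or with the 18S covariate (0.79, adjusted p = 0.147), and also without untreated wild-type array 2 or 3 or treated wild-type array 3 or 4. In mutants the change was 0.15 ± 0.15 (adjusted p = 0.752), and the interaction was -0.60 ± 0.22 (adjusted p = 0.221). Of the Clu probe sets, 3 carry the design suffix _x_, which marks probes that can also bind other transcripts. Their genotype changes (2.26 to 2.35) were close to that of the probe set without it (2.51 ± 0.17).

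Vcam1, an adhesion molecule that binds integrin alpha-4 on leukocytes and is also switched on in failed-repair tubule cells, rose in mutants and not detectably with the trap. Untreated wild-type kidneys gave 6.19, 6.45 and 6.42, untreated mutants 9.68, 10.98, 10.63 and 9.66, treated wild type 6.02, 6.29, 6.52 and 7.37, and treated mutants 10.63, 10.48, 10.79 and 10.82. Mutants and wild type were apart under both treatments, and within a genotype the treatments overlapped. The genotype difference was 3.88 ± 0.31 under PBS (14.7-fold, adjusted p = 1.11e-07) and 4.13 ± 0.29 under the trap (17.5-fold, adjusted p = 5.19e-08). The trap gave 0.44 ± 0.29 in mutants (adjusted p = 0.573) and 0.19 ± 0.31 in wild type (adjusted p = 0.838). The other probe sets rose by 2.83 ± 0.26 and 2.08 ± 0.24 under PBS.

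Cd44, the hyaluronan receptor, followed the same order from a wild-type level at background. Untreated wild-type kidneys gave 4.86, 4.51 and 4.70, untreated mutants 8.29, 8.39, 8.46 and 8.13, treated wild type 4.82, 5.87, 5.35 and 5.31, and treated mutants 8.50, 8.75, 8.94 and 8.61. The treated mutants all lay above the untreated ones, but by little. Cd44 rose in mutants by 3.63 ± 0.18 under PBS (12.4-fold, adjusted p = 1.37e-09) and by 3.36 ± 0.17 under the trap (10.3-fold, adjusted p = 3.27e-09). With the trap the changes were 0.38 ± 0.17 in mutants (adjusted p = 0.335) and 0.65 ± 0.18 in wild type (adjusted p = 0.101). The latter passed without treated wild-type array 1 (0.82, adjusted p = 0.0142) and with array weights (0.57, adjusted p = 0.0262). Probe set 1434376_at gave 3.75 ± 0.18 for the genotype under PBS and 1452483_a_at, whose signal reached only 6.25, gave 1.26 ± 0.18. For the trap 1434376_at gave 0.75 ± 0.18 in wild type (limma adjusted p = 0.055) and 0.37 ± 0.17 in mutants (adjusted p = 0.321), with arrays apart in both. Probe set 1452483_a_at gave 0 ± 0.18 and 0.24 ± 0.16, with overlapping arrays.

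**Figure D2:**
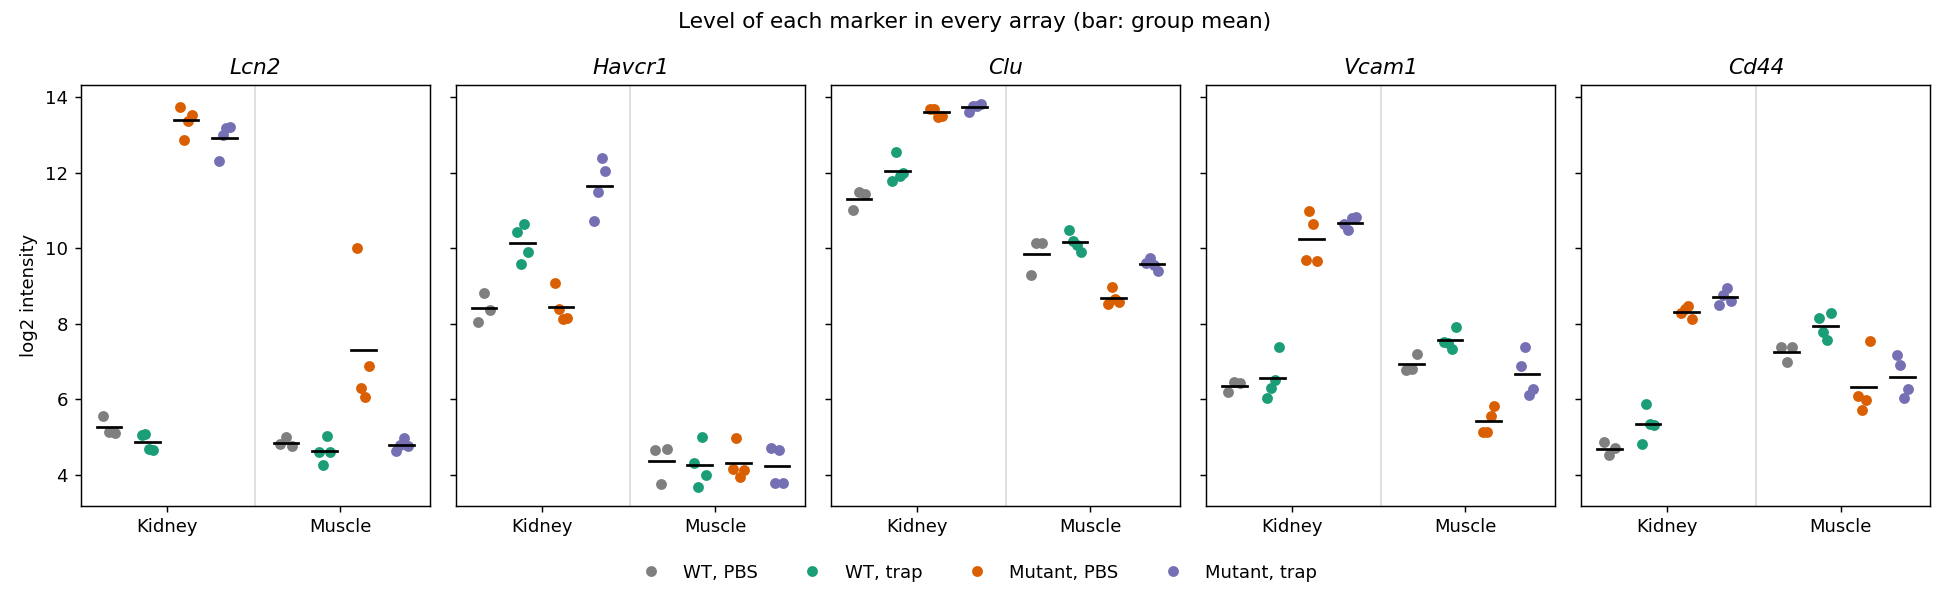
Log2 intensity (y axis) of the leading probe set of each of the 5 measured markers, with 1 point per array, a black bar at each group mean and the 4 groups of each tissue side by side. Lcn2, Clu, Vcam1 and Cd44 step up with genotype in kidney, Havcr1 steps up with the trap in kidney, and in muscle Lcn2 is high only in untreated mutants, where 1 array stands at 10.01.

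Counted together, 4 of the 5 genes and 11 of the 13 probe sets rose with the mutation in kidney under PBS, where 49.3% of all probe sets were called, and 5 genes and 13 probe sets rose under the trap, where 42.4% were called. So large a share of called probe sets makes these counts weak descriptions. The median change of the 5 genes was 3.63 under PBS. That over all probe sets was -0.06, but rises and falls offset each other there (7527 called higher and 8022 lower), so it does not measure the usual size of a change. The genes were also chosen with earlier results of these data known. For the trap in mutants 1 gene and 2 probe sets rose, all of Havcr1 (1.61% of all probe sets called). With the trap in wild type 2 genes and 5 probe sets rose (1.23% called). For the interaction limma called 0 members (1.18% called), although Havcr1 and Clu had unadjusted p of 0.00745 and 0.0149. Treated mutants against untreated wild type gave 5 genes and 13 probe sets higher (45% called).

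By the rule used, a gene follows genotype when it is called in the same direction in both genotype comparisons and in neither trap comparison. It follows the trap when it is called for the trap in mutants or in wild type and in neither genotype comparison. In kidney Lcn2, Vcam1 and Cd44 followed genotype, Havcr1 and Clu were called for both, and 0 of the 5 followed the trap alone. Havcr1 fell into both through the genotype difference under the trap, and Clu through its rise with the trap in wild type.

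**Figure D3:**
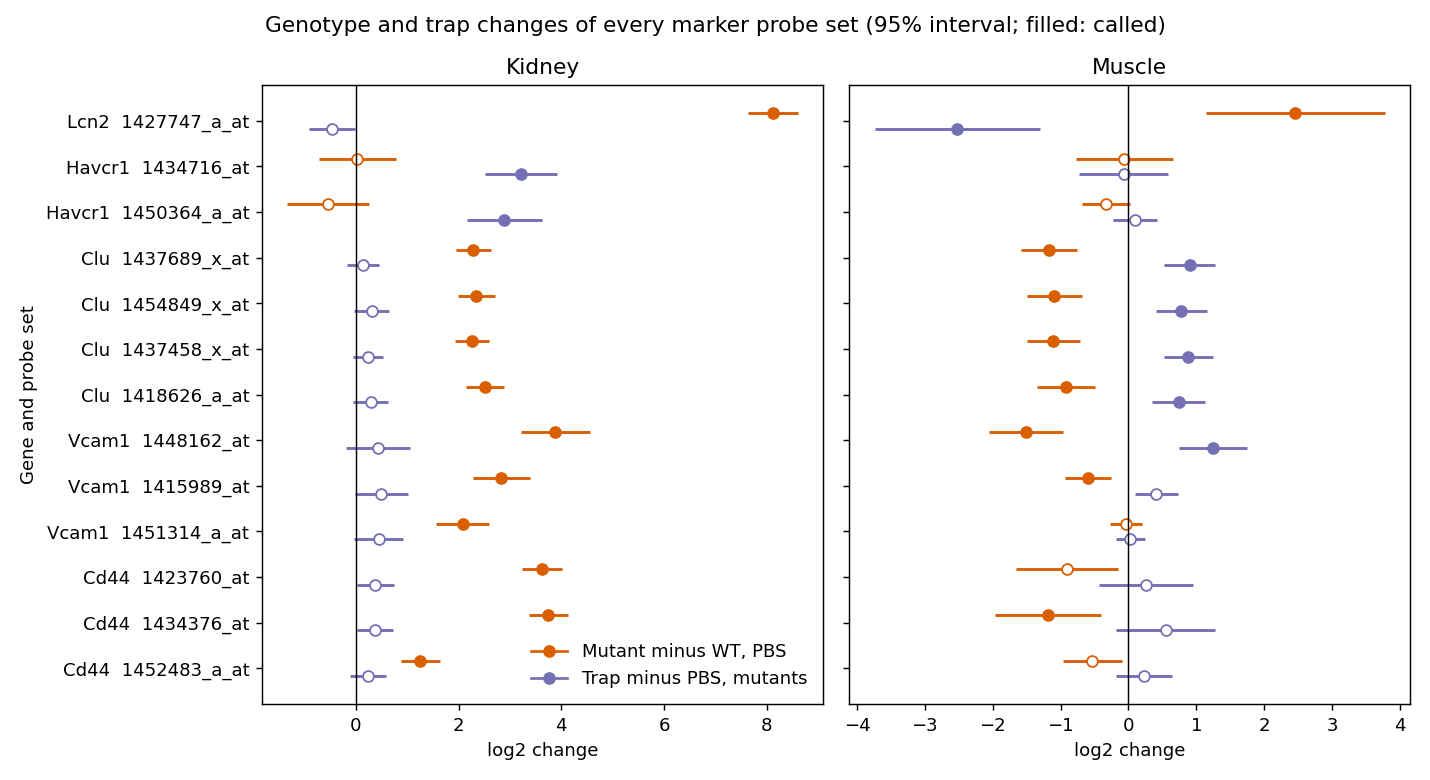
Log2 change (x axis) of each of the 13 marker probe sets (y axis) in kidney (left) and muscle (right), with the genotype change under PBS in orange and the trap change in mutants in purple. Points are estimates from limma, lines are 95% intervals, and filled points were called. In kidney only the Havcr1 probe sets are near 0 for genotype (0.03 and -0.54) and far above 0 for the trap (3.22 and 2.89).

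Markers of other cell types are given beside these changes, read against the 50.9% of all genes called for genotype under PBS in kidney. All 18 measured macrophage genes rose in untreated mutants, and their mean level was 6.09 to 6.41 in untreated wild type, 9.29 to 9.64 in untreated mutants, 6.36 to 6.97 in treated wild type and 9.23 to 9.83 in treated mutants. Fibroblast genes rose in 11 of 13, from 8.31 to 8.67 in untreated wild type to 9.91 to 10.34 in untreated mutants. Of 12 endothelial genes 4 rose (33.3%, below the share of all genes), with list means of 7.74 to 7.92 and 8.11 to 8.20. Vcam1, Cd44 and Clu are made by 1 or more of these cell types. The part of those cells in their rise, or in that of Lcn2, was not tested.

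Neutrophils also make Lcn2. Of 10 measured neutrophil genes 3 rose in untreated mutant kidneys and 1 fell (40.0% called, below the 50.9% of all genes), with a list mean of 4.77 to 4.84 in wild type and 5.0 to 5.70 in mutants. S100a8 was at 6.08 to 8.36 in untreated mutants against 3.66 to 4.16 in wild type, and at 5.31 to 8.69 in treated mutants. S100a9 was at 5.63 to 8.02 in untreated mutants against 4.28 to 4.36 in wild type, and at 5.36 to 8.31 in treated mutants. Genes of granule proteins had group means of 4.71 against 5.05 (Mpo), 4.33 against 4.52 (Elane), 5.11 against 5.30 (Camp), 4.99 against 5.77 (Ngp) and 5.03 against 4.91 (Ltf) in untreated mutants and wild type. With the trap in mutants the median change was 0.09 over the neutrophil list, 0.04 over the macrophage list and 0.08 over the fibroblast list. The part of neutrophils in the Lcn2 rise was not tested.

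In muscle the markers took another course. Lcn2 gave 4.80, 5.0 and 4.75 in untreated wild type and 10.01, 6.29, 6.06 and 6.87 in untreated mutants. Mutants given the trap were at 4.63 to 4.97 and wild type given the trap at 4.25 to 5.01. Every untreated mutant muscle lay above every other muscle array, and 1 of them, replicate 1, lay more than 3 units above the rest. Lcn2 rose in untreated mutants by 2.46 ± 0.62 (5.5-fold, adjusted p = 0.014) and fell with the trap in mutants by 2.52 ± 0.58 on the log2 scale (5.74-fold lower, adjusted p = 0.0197), the second lowest change of all probe sets. Treated mutants differed from untreated wild type by -0.06 ± 0.62 (adjusted p = 0.986). Both groups (4.79 ± 0.14 and 4.85 ± 0.13) lay under the muscle background level of 5.15, so this compares signals at background. The fold changes of Lcn2 in muscle are likewise bounded from below. The interaction was -2.29 ± 0.85 and did not pass (adjusted p = 0.246).

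Leaving out the high array brought the Lcn2 change in muscle to 1.56 under PBS and -1.62 for the trap, and both stayed called. Both were lost in a fit of only the compared groups (adjusted p = 0.08 and 0.0982), with a covariate for RNA quality, the actin control's 3 prime less its 5 prime signal (1.93, adjusted p = 0.102, and -2.06, adjusted p = 0.133), and with the 18S covariate (2.31, adjusted p = 0.162, and -2.37, adjusted p = 0.357). The actin value was -0.06 to 0.14 in untreated mutant muscle and 0.16 to 0.18 in untreated wild type, and the 18S signal 12.50 to 13.13 against 13.11 to 13.28. The 7 neutrophil genes named as defining markers included S100a8, at 7.01 ± 0.84 in untreated mutant muscle, 3.97 ± 0.28 in wild type and 5.33 ± 0.86 in treated mutants, while S100a9 was at 4.99 ± 0.59, 4.59 ± 0.20 and 5.63 ± 0.79 in the same groups. Of the others, Mpo, Elane and Ltf lay between 4.93 and 5.53 in untreated mutants, and Camp and Ngp had means of 6.09 and 6.13 there against 6.11 and 6.17 in wild type. The part of these signals in the Lcn2 change was not tested.

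Havcr1 was at or below background in all 15 muscles, between 3.68 and 5.0 by its leading probe set and between 4.18 and 5.16 by the other. No comparison of it passed in muscle, and the trap changed it by -0.07 ± 0.31 in mutants (adjusted p = 0.935).

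Clu fell in untreated mutant muscle, opposite to kidney. Its leading probe set gave 9.29, 10.13 and 10.13 in untreated wild type, 8.51, 8.98, 8.66 and 8.57 in untreated mutants, 10.49, 10.20, 10.08 and 9.90 in treated wild type and 9.62, 9.74, 9.56 and 9.40 in treated mutants. It fell by 1.17 ± 0.19 on the log2 scale in mutants under PBS (2.25-fold lower, adjusted p = 9.45e-04) and rose with the trap in mutants by 0.90 ± 0.18 (adjusted p = 0.0107). All 4 probe sets were called in both comparisons. The call for the trap was lost with the actin covariate (0.81, adjusted p = 0.0737) and the 18S covariate (0.69, adjusted p = 0.373). The untreated mutants lay below all other muscles, and treated mutants overlapped untreated wild type.

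Vcam1 did likewise by its leading probe set. Untreated wild-type muscles gave 6.78, 6.79 and 7.20, untreated mutants 5.14, 5.12, 5.56 and 5.82, treated wild type 7.52, 7.49, 7.32 and 7.90, and treated mutants 6.88, 7.38, 6.10 and 6.28. The change was -1.51 ± 0.26 in mutants under PBS (2.85-fold lower, adjusted p = 0.00119) and 1.25 ± 0.24 with the trap in mutants (2.37-fold, adjusted p = 0.00876). The latter was lost in a fit of only the compared groups (adjusted p = 0.0536) and with the actin (1.09, adjusted p = 0.0682) or 18S covariate (1.25, adjusted p = 0.202), and was 0.56 as the mean of the 3 probe sets (adjusted p = 0.0269). The 3 probe sets differed: 1415989_at fell by 0.60 ± 0.16 (adjusted p = 0.02) and was not called for the trap (0.41 ± 0.15, adjusted p = 0.117), and 1451314_a_at gave -0.03 ± 0.11 and 0.02 ± 0.10. Muscle group means ran from 6.18 to 6.90 for 1415989_at and from 5.88 to 5.98 for 1451314_a_at. The latter was at 5.84 in untreated wild-type kidney, so its low signal limits what it can show in muscle.

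Cd44 in muscle did not pass by its leading probe set. It gave 7.37, 6.98 and 7.38 in untreated wild type, 6.09, 5.72, 5.99 and 7.53 in untreated mutants, 8.15, 7.77, 7.58 and 8.27 in treated wild type and 7.17, 6.90, 6.02 and 6.27 in treated mutants. The genotype change was -0.91 ± 0.35 under PBS (adjusted p = 0.0943) and -1.35 ± 0.33 under the trap (adjusted p = 0.0597). Untreated mutant array 4 lay above all 3 untreated wild-type arrays while the other 3 mutants lay below them, and without it the change under PBS was -1.31 (adjusted p = 0.00453). With array weights it was -1.05 (adjusted p = 0.0288), and under the trap 5 of 26 settings gave a call (lowest adjusted p = 0.0066). Probe set 1434376_at fell under PBS by 1.19 ± 0.37 (adjusted p = 0.0396).

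In muscle, 1 gene rose and 2 fell with the mutation under PBS (15.4% of all probe sets called), and 2 rose and 1 fell with the trap in mutants (6.13% called). The counts were 1 and 7 probe sets for the first and 5 and 1 for the second. Under the trap (1.05% called), with the trap in wild type (0.0507% called), for the interaction (0.12% called) and in treated mutants against untreated wild type (0.703% called), limma called 0 of the 5 genes, with unadjusted p under 0.05 for 3 of them in the first (Clu, Vcam1 and Cd44), 1 in the second (Vcam1), 2 in the third (Lcn2 and Clu) and 0 in the last. By the class rule Lcn2, Clu and Vcam1 were called for both genotype and trap in muscle, and Havcr1 and Cd44 for neither.

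Fibroblast genes in muscle had list means of 10.38 to 10.45 in untreated wild type, 8.70 to 9.57 in untreated mutants, 10.18 to 10.58 in treated wild type and 9.52 to 9.88 in treated mutants, and 8 of 13 fell in untreated mutants, where 15.5% of all genes were called. Of the 13, 4 rose and 2 fell with the trap in mutants (median 0.03, against 6.2% of all genes called), so this list did not move 1 way with the trap. Macrophage genes averaged 6.78 to 7.04, 6.23 to 7.19, 7.27 to 7.79 and 6.80 to 7.23 in the same groups, with 5 of 18 lower in untreated mutants and 2 of 18 higher with the trap in mutants. Their part in the changes of Clu, Vcam1 and Cd44 was not tested.

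The tissue difference was tested in 1 fit of the 30 arrays, with each mouse as a random block. The genotype change under PBS was larger in kidney than in muscle by 5.66 ± 0.68 for Lcn2 (adjusted p = 1.76e-07), by 5.39 ± 0.42 for Vcam1 (adjusted p = 7.78e-11), by 4.54 ± 0.42 for Cd44 (adjusted p = 1.53e-09) and by 3.46 ± 0.25 for Clu (adjusted p = 2.18e-11). For Havcr1 it was 0.09 ± 0.50 (adjusted p = 0.911). Over all probe sets 35.1% were called in this comparison. For the trap in mutants, where 4.04% were called, Havcr1 was the only one of the 5 past the threshold, at 3.29 ± 0.46 (adjusted p = 2.05e-04). Lcn2 gave 2.06 ± 0.63 (adjusted p = 0.0627), Clu -0.75 ± 0.23 (adjusted p = 0.0625), Vcam1 -0.81 ± 0.39 (adjusted p = 0.263) and Cd44 0.12 ± 0.38 (adjusted p = 0.918). Lcn2 passed when untreated mutant 1, 2 or 3 was left out (1.28, 2.23 and 2.48, lowest adjusted p = 0.0181), and Clu in 4 of 19 settings (without untreated mutant 2, treated wild type 2 or untreated wild type 1, or with a replicate block, lowest adjusted p = 0.0277).

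Ordered by group mean, Lcn2 was highest in untreated and then treated mutant kidney, whose arrays overlapped, followed by untreated mutant muscle (7.31 ± 1.83), untreated wild-type kidney (5.27 ± 0.25) and 4 groups from 4.87 to 4.61 that overlapped their neighbours. Havcr1 ran from treated mutant (11.66 ± 0.73) to treated wild-type kidney (10.14 ± 0.49), then to the overlapping untreated mutant (8.44 ± 0.44) and wild-type kidneys (8.41 ± 0.38), and last to 4 overlapping muscle groups from 4.36 to 4.23. Clu was higher in each of the 4 kidney groups (11.31 to 13.75) than in any muscle group (8.68 to 10.17). Vcam1 was highest in the overlapping mutant kidneys (10.68 ± 0.16 and 10.24 ± 0.67), then in treated wild-type muscle (7.56 ± 0.24), then in 4 groups from 6.92 to 6.36 that overlapped their neighbours, and lowest in untreated mutant muscle (5.41 ± 0.34). Cd44 was highest in treated (8.70 ± 0.19) and untreated mutant kidney (8.32 ± 0.14), the latter overlapping treated wild-type muscle (7.94 ± 0.32), and lowest in wild-type kidneys (5.34 ± 0.43 and 4.69 ± 0.17).

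Other genes of tubule injury and repair, a list that leaves out the 5 markers, rose in untreated mutant kidneys in 24 of 29 measured members and fell in 1. Their median change was 2.14, against -0.08 over all 17782 genes, of which 50.9% were called. Timp1, which inhibits matrix metalloproteinases, rose by 4.62 ± 0.46, Cp (ceruloplasmin, a copper-carrying ferroxidase) by 3.87 ± 0.16, and S100a6, a calcium-binding protein, by 3.86 ± 0.25. With the trap in mutants 2 of the 29 rose and 1 fell (median -0.03), where 2.0% of all genes were called. Cxcl10, an interferon-induced chemokine, rose by 1.08 ± 0.22 (adjusted p = 0.0201) and Fgb, the fibrinogen beta chain, by 1.07 ± 0.24 (adjusted p = 0.0385), while Mmp7, a matrix metalloproteinase made by injured tubules, fell by 1.32 ± 0.24 on the log2 scale (adjusted p = 0.0115). The Fgb call was lost in 11 of 25 settings, that of Cxcl10 in 3 of 26 (with the 18S covariate, 1.70, and without treated mutant array 2, 0.91, or untreated mutant array 4, 0.95) and that of Mmp7 in 2 of 26 (-0.66 with the 18S covariate and -1.32 with only the compared groups).

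Of 31 measured receptors, ligands and partners of the marker proteins, 14 rose and 5 fell in untreated mutant kidneys (median 0.15), 61.3% in all against 50.9% of all genes. Lrp2 (megalin), the endocytic receptor that takes up filtered lipocalin 2, fell by 2.70 ± 0.29 on the log2 scale (adjusted p = 2.05e-06), and Slc22a17, another lipocalin 2 receptor, gave -0.02 ± 0.16 (adjusted p = 0.942). Mmp14 and Mmp2, proteases that act on Cd44 or on matrix, rose by 3.41 ± 0.21 and 2.25 ± 0.24. With the trap in mutants 1 of 31 was called (3.2%, against 2.0% of all genes). Timd4, whose product binds Havcr1, was 0.51 ± 0.12 higher (adjusted p = 0.0426), but at group means of 3.26 and 3.77 it lay under the background level, and the call was lost in 14 of 25 settings.

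Regulators of the acute phase, NF-kB, STAT3 and AP-1 pathways rose in untreated mutant kidneys in 28 of 33 (median 1.34), 84.8% against 50.9% of all genes called. Socs3, a feedback inhibitor of cytokine signalling, rose by 4.94 ± 0.26, Runx1 by 3.23 ± 0.21 and Fos by 3.21 ± 0.25. Of the factors known to act on the Lcn2 gene, Nfkbiz rose by 2.66 ± 0.25, Cebpd by 2.84 ± 0.23, Stat3 by 1.79 ± 0.14 and Cebpb by 1.32 ± 0.24. With the trap in mutants 1 of 33 was called (3.0%, against 2.0% of all genes). It was Il1r1, the interleukin 1 receptor, which fell by 0.48 ± 0.10 on the log2 scale (adjusted p = 0.0268, lost in 7 of 26 settings). In wild type the trap raised Cebpd by 1.72 ± 0.23 (adjusted p = 0.00545), while its change in mutants was 0.12 ± 0.22 (adjusted p = 0.893), and the interaction passed (-1.60 ± 0.32, adjusted p = 0.0257).

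The genes whose pattern over the 15 kidney arrays was most like a marker's are given as a description, since all arrays share the same groups. Lcn2 was closest to Sytl2 (r = 0.995), Npdc1 (0.994) and Tgfbr2 (0.994), which rose by 2.46 ± 0.11, 1.42 ± 0.09 and 2.15 ± 0.11 in untreated mutants. Cd44 was closest to the leukocyte genes Laptm5 (0.993), Fcgr1 (0.992) and Ctss (0.992). Clu was closest to Fblim1 (0.986), Rras (0.984) and Icam1 (0.983), and Vcam1 to Ywhah (0.982), Rcn1 (0.982) and Creb5 (0.98).

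The Havcr1 pattern had looser company: Cd207 (r = 0.86), Lpo (0.859) and Fgl1 (0.825). Each rose with the trap in mutants, Lpo, which encodes lactoperoxidase, by 2.02 ± 0.21 (adjusted p = 2.16e-04), Fgl1, a fibrinogen-like secreted protein, by 1.93 ± 0.21 (adjusted p = 3.19e-04) and Cd207, the gene of langerin, by 0.89 ± 0.12 (adjusted p = 0.00182). The calls of Lpo and Cd207 were lost with the 18S covariate (1.89 and 0.84, adjusted p = 0.0627 and 0.141). In wild type Lpo rose by 1.46 ± 0.23 (adjusted p = 0.0089). Fgl1, unlike Havcr1, was lower in untreated mutants (-0.86 ± 0.23, adjusted p = 0.00553).

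Across the 8 mutant mice, 15 relations between markers were examined, of which 2 had an unadjusted permutation p under 0.05 by Pearson's r and 0 passed after adjustment. Those 2 paired Havcr1 in kidney with Clu or Cd44. The permutations shuffled all 8 mice without regard to treatment, and Havcr1 did not overlap between treated and untreated mutants. The p-values therefore also reflect that treatment difference. The strongest relation, Havcr1 with Cd44 in kidney, had r = 0.85 (rho = 0.81, permutation p = 0.00499, adjusted 0.0748, and 0.78 without the 2 animals farthest from the median), but within the 4 treated mutants it was 0.77 and within the 4 untreated -0.07. Lcn2 in kidney and in muscle of the same mutants gave r = 0.70 (rho = 0.69, permutation p = 0.0686, adjusted 0.239), and 0.41 without the 2 farthest animals. Within the 4 treated mutants it was 0.77, where muscle Lcn2 lay at background (4.63 to 4.97), and within the 4 untreated 0.70. Havcr1 with Lcn2 in kidney gave r = -0.34 (rho = -0.33, permutation p = 0.431, adjusted 0.594), against 0.93 within the treated and 0.43 within the untreated mutants, groups of 4 in which no test is given.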

How the data were processed

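Per the labels' protocols, snap-frozen kidney and muscle gave the RNA for Affymetrix Mouse Genome 430 2.0 chips. Each probe set has 1 log2 intensity per array, normalized and deposited by the authors by a method not stated in the labels, and base 2 follows from the range of the values. Array medians were 6.09 to 6.24 in kidney and 5.94 to 6.06 in muscle, and no further scaling was applied. Of 35088 probe sets, 31563 had 1 gene symbol in GEO's platform annotation, 825 had several and 2700 had none listed.

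Each tissue was fitted with limma 3.58.1 in R 4.3.3, with 4 group means sharing 1 moderated spread. The tissue difference was fitted over 30 arrays with the animal, tied by its number in the titles, as a random block (consensus correlation 0.0717). That correlation was kept when an animal was left out, a choice made after the data were seen. Arrays of 1 group are different animals, and the labels name no batch.

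The members and gene lists were chosen with earlier results of these data known. Named genes are the members, the 3 called genes of each list with the largest changes in kidney for genotype under PBS and for the trap in mutants, the 3 genes most correlated with each member, and fixed receptors and regulators. Relations were tested by permutation. On data simulated for genotype under PBS, with 200 of 31563 probe sets changed, 87% of changes of 1 and 98% of changes of 2 were recovered in kidney with 13 false calls, and 79% and 98% in muscle with 13, and 0 were called when nothing was changed. In the data themselves 49.3% of probe sets in kidney and 15.4% in muscle were called for that comparison. The simulated rates therefore need not carry over to the data, and the trap comparisons were not simulated. Python 3.11.15 with matplotlib 3.10.9 drew the plots. Alternatives were other normalizations, probe set choices, variance models, covariates and leaving out each array.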

Additional observations from a re-analysis of the deposited data

Results flagged for a closer look

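In 78 groups of 4 arrays checked for single arrays far from the rest, 3 were found, and chance gives about 1 in 20 groups. For Clu probe set 1437458_x_at 1 treated mutant kidney was at 13.38 and the other 3 at 13.64 to 13.69. For Vcam1 probe set 1451314_a_at 1 untreated mutant kidney was at 8.86 and the others at 7.57 to 7.64. For Cd44 probe set 1452483_a_at 1 untreated mutant kidney was at 6.25 and the others at 5.48 to 5.60. None of these is the leading probe set of its gene.

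In all, 5 tissue differences passed the test of the difference itself. The genotype change under PBS was larger in kidney than in muscle by 5.66 for Lcn2, 3.46 for Clu, 5.39 for Vcam1 and 4.54 for Cd44, and Clu and Vcam1 fell in muscle while they rose in kidney. The trap change in mutants was larger in kidney by 3.29 for Havcr1, which lay near background in every muscle.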

How the results depend on the processing

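Of 1728 values of the members under alternatives, 1683 kept their side of the threshold, 26 lost a call, 19 gained one and 0 reversed a call. Direction was compared only where a value was called, and some uncalled values near 0 changed sign. Calls for genotype in kidney, for Havcr1 with the trap in mutants and for the kidney minus muscle genotype difference were kept in each alternative run. With the trap in wild-type kidney the 2 called genes became 1 with the mean of all probe sets, 1 in a fit of only the compared groups, 1 with the replicate block, 0 with the 18S covariate, 3 with array weights and 0 to 3 when an array was left out (3 without treated wild-type array 1). The replicate block moved the kidney minus muscle count for the trap in mutants from 1 to 2, and leaving out an animal gave 1 to 3. The block changed no other count of called members. Nothing in the labels makes the replicate numbers a pairing, and same-numbered arrays did not deviate together (r from -0.13 to 0.34 in kidney and -0.23 to 0.29 in muscle). The kidney interaction count of 0 ran from 0 to 1 without single arrays. For genotype under the trap in muscle, the count of 0 became 2 with array weights, 1 with only the compared groups, 1 with the 18S covariate and 0 to 1 without single arrays. For the trap in mutants in muscle, 3 became 1 with only the compared groups, 0 with the actin covariate and 0 with the 18S covariate. The causes were not tested.

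Counts over all probe sets varied more. In kidney they ran from 27 to 1093 for the trap in mutants (508 as reported), 11 to 1612 for the trap in wild type (387), 110 to 1111 for the interaction (371), and 6236 to 17291 for treated mutants against untreated wild type (14190). In muscle they ran from 1189 to 6241 for genotype under PBS (4857), 10 to 1388 under the trap (332), 61 to 3793 for the trap in mutants (1935), 1 to 167 in wild type (16), 15 to 868 for the interaction (38) and 45 to 471 for treated mutants against untreated wild type (222). The kidney minus muscle count for the trap in mutants ran from 567 to 1922 (1275). Some signals lay near background: Lcn2 and Cd44 in wild-type kidney, Havcr1 in muscle, and Lcn2 in muscle outside the untreated mutants. They limit what a fold change can show. With each array centred on its median, the share of higher among called probe sets in kidney went from 48.4% to 36.3% for genotype under PBS, from 49.4% to 30.6% under the trap and from 46.3% to 30.8% for treated mutants against untreated wild type.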
